A study of Macaca fascicularis with 44 samples.

Results

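The cells described here are the 79 of 3682 single cells that the authors' deposited annotation names EPI, for epiblast. They were chosen by that name alone, and all 79 belong to the authors' fine cluster 20, which holds no other cell. The cells came from 9 wild-type cynomolgus monkey (Macaca fascicularis) embryos that were made by sperm injection into oocytes, selected as expanded blastocysts and then grown in culture. Embryonic days are counted from the injection, so an E18 embryo was taken 18 days after it. Before the cells were separated, extraembryonic tissue was dissected away, and RNA was then read cell by cell with scChaRM-seq, an assay that also reads DNA methylation and open chromatin from the same cell. No embryo was treated or mutated.

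EPI cells came from 8 embryos and were compared with 11 other annotated classes, above all with PS and derivative (PS, primitive streak), Non-neural ectoderm (NNE) and Neural ectoderm. The embryos were E16-1, E18, E21 and E23, annotated as male, and E16-2, E20, E22, E24 and E25, annotated as female. Every day after E16 is a single embryo, so day, embryo and sex cannot be told apart, and the libraries of 1 embryo are not independent of each other. Culture conditions, rather than a uterus, are common to all of them.

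The epiblast is the pluripotent tissue of the early embryo, and all cells of the body descend from it. At gastrulation some of its cells enter the primitive streak, where NODAL, WNT and BMP signals switch on mesoderm and endoderm genes and the cells lose their epithelial contacts. Other epiblast cells turn into ectoderm or, in primates, into amnion, and in cynomolgus monkeys the first germ cells have been described in the early amnion. After implantation the epiblast is in the primed state of pluripotency, which keeps NANOG and SOX2 but drops many genes of the preimplantation, naive state.

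EPI cells had between 18632 and 816948 counts each, with a median of 176375 counts and 5786 detected genes. The other 3603 cells had a median of 109638 counts and 4849 genes, so an EPI cell was sampled more deeply than most cells it was compared with. The table covered 21834 genes. Among the pluripotency genes, POU5F1, LIN28A, UTF1 and ZFP42 were not analysed here. In 2 of the 44 libraries, numbers 26 and 27, the sample title and time label disagree, and their 4 EPI cells were left out of everything below except the counts per cell. All 96 cell numbers were used by more than 1 library, and 0 pairs of cells had identical counts.

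The share of EPI cells was low in every embryo. It was 3.85% of the cells of E16-1 (8 of 208, exact 95% interval 1.67 to 7.44%), 1.84% of E16-2 (5 of 272, 0.599 to 4.24%) and 6.13% of E18 (23 of 375, 3.93 to 9.06%). None was found among the 518 cells of E20, which allows a share of up to 0.579%. It was 2.72% in E21 (12 of 441, 1.41 to 4.70%), 0.567% in E22 (3 of 529, 0.117 to 1.65%), 1.46% in E23 (8 of 547, 0.633 to 2.86%), 0.538% in E24 (1 of 186, 0.0136 to 2.96%) and 3.28% in E25 (15 of 457, 1.85 to 5.36%). The interval of E18 lay above those of E20, E22, E23 and E24, and the share did not follow the day. These intervals cover counting error only, and dissection can also set the shares.

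**Figure D1:**
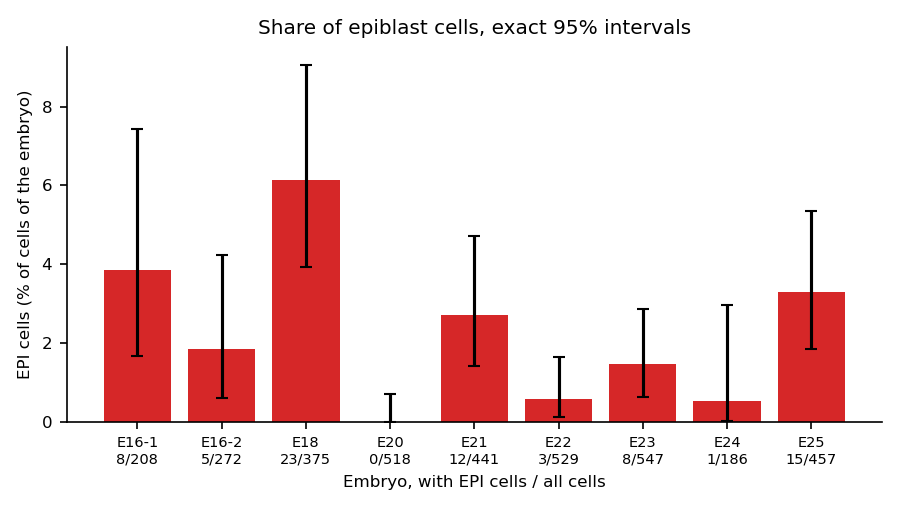
Share of cells annotated as epiblast in each of the 9 embryos, in percent of the embryo's cells in libraries with agreeing labels, with bars for the share and whiskers for the exact 95% interval. E18 was highest with 6.13%, and E20 had none among 518 cells.

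The label was first checked against NANOG and PRDM14, transcription factors of pluripotency, HESX1, a homeobox repressor of the epiblast and forebrain, and USP44, a deubiquitinase of pluripotent cells. Counts of the EPI cells of each embryo were summed wherever there were at least 5 cells, giving 6 EPI sums, and levels are given as CPM, the counts of a gene scaled to a common total for the sum. NANOG had 33.5 CPM in the EPI sum of E16-1, 0 in E16-2, 228 in E18, 300.3 in E21, 7.87 in E23 and 140.0 in E25, against 1.89 CPM in all other cells pooled. PRDM14 had 1.32 CPM in E16-1, 7.66 in E16-2, 68.9 in E18, 34.6 in E21, 0.524 in E23 and 85.2 in E25. HESX1 had 18.5, 0, 145, 23.9, 0 and 85.2 CPM in the same order of embryos, and USP44 had 51.2, 7.66, 232, 94.0, 91.8 and 286 CPM, against 5.04 CPM of USP44 in all other cells.

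All 4 genes stood well above the other cells in E18, E21 and E25. In E16-2 none exceeded 7.66 CPM. In E23 NANOG, PRDM14 and HESX1 were at or below 7.87 CPM, but USP44, found in 4 of 8 cells, was about as high as in E21. NANOG was detected in 23 of 23 EPI cells of E18, 15 of 15 of E21 and 11 of 15 of E25, but in 4 of 8 of E16-1, 1 of 8 of E23 and 0 of 5 of E16-2. It was also detected in 3 of 3 cells of E22 and 2 of 2 of E24, embryos with too few EPI cells for a sum. TFAP2A, a transcription factor of amnion and surface ectoderm, ran the other way, with 8 of 8 cells in E23, 6 of 8 in E16-1 and 4 of 5 in E16-2, but 4 of 23 in E18, 4 of 15 in E21 and 2 of 15 in E25. Since depth differs, cells were also thinned to 18000 counts each. NANOG was then detected in 52 of 79 EPI cells (65.8%, exact 95% interval 54.3 to 76.1%; 74.7% without thinning), against 6.90% of PS cells, 1.68% of NNE cells and 3.51% of Neural ectoderm cells. The extraembryonic mesenchyme class EXMC, which should lack NANOG, had it in 1.25% of cells, and its median depth was 107826 counts.

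The other 3 genes marked fewer cells or were shared more widely after thinning. PRDM14 was detected in 35.4% of EPI cells (25 to 47.0%), against 4.93% of PS cells and 0.269% of EXMC cells. HESX1 was detected in 31.6% of EPI cells (21.6 to 43.1%), against 4.43% of PS cells and 1.16% of EXMC cells. USP44 was detected in 59.5% of EPI cells (47.9 to 70.4%), but also in 28.1% of PS cells and 47.4% of Neural ectoderm cells, against 1.61% of EXMC cells. USP44 was thus the least selective of the 4.

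**Figure D2:**
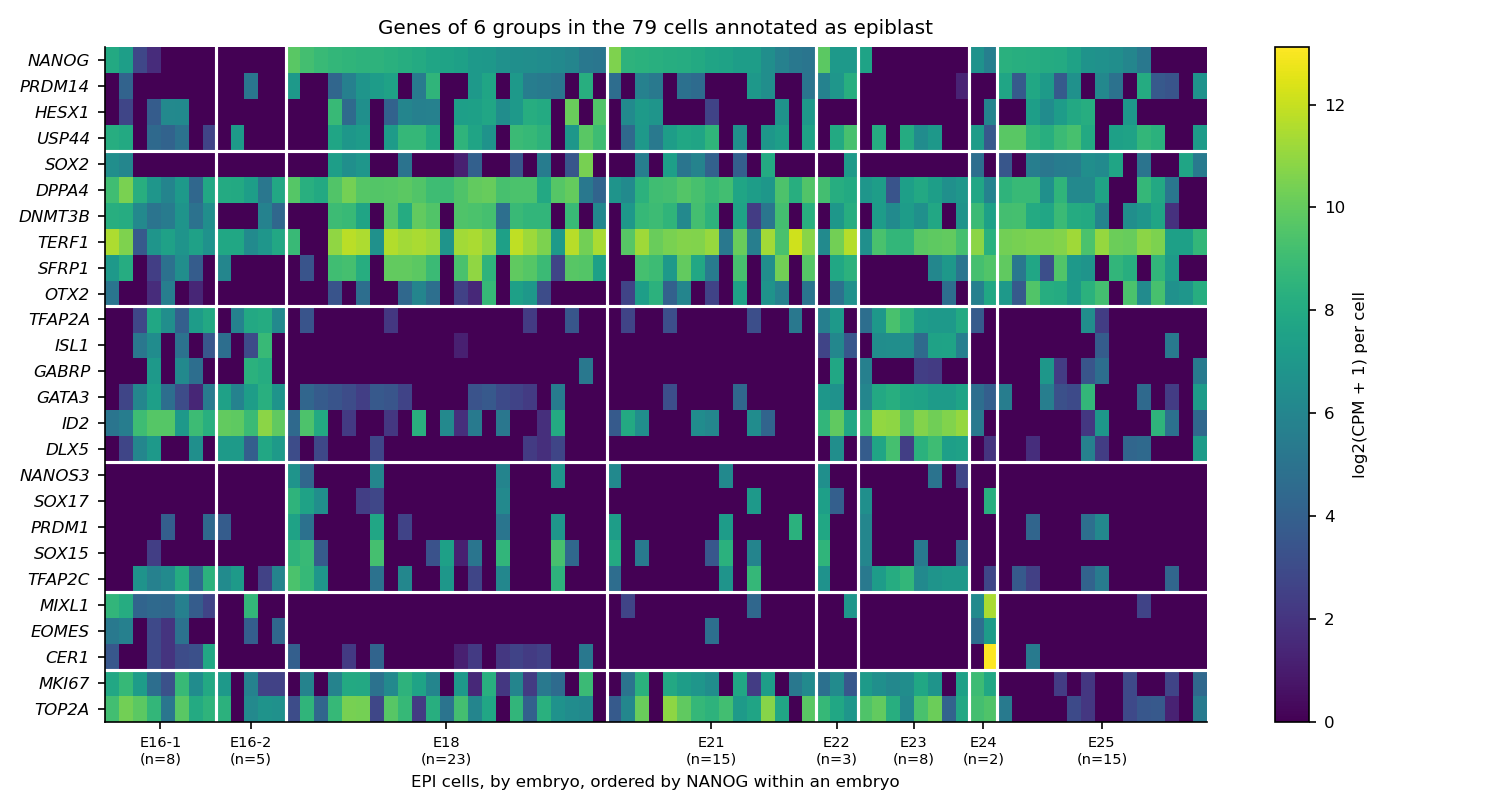
Levels of 26 genes in the 79 cells annotated as epiblast, as log2(CPM + 1) per cell in colour, with genes in rows by group and cells in columns by embryo, ordered by NANOG within an embryo. NANOG fills the cells of E18 and E21, TFAP2A and ID2 fill those of E23, and ID2 fills those of E16-2.

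To describe EPI cells against the rest of the embryo, the 6 EPI sums were fitted with edgeR's quasi-likelihood test against the mean of the 11 other classes, with the embryo as a term and p-values adjusted over all genes and the 3 class comparisons. Of 16292 genes tested, 766 were higher in EPI cells (4.7%) and 283 were lower (1.74%). Class names may rest on these same counts, so adjusted p-values between classes describe the size of a difference against the spread of embryos and are not evidence that the class exists. A sum mixes cells, so fewer cells that express a gene and less RNA per cell cannot be told apart in it.

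Pluripotency genes made up the clearest group. All 4 marker genes were higher, with a median log2 fold change of 5.68 against 0.06 over all genes. NANOG was 5.91 ± 0.62 (SE) higher on the log2 scale (adjusted p = 9.81e-10), and USP44 was 4.59 ± 0.38 higher (adjusted p = 1.16e-13). Of 10 core pluripotency genes 8 were higher and 1 was lower, with a median of 3.53, and the lists overlap in members such as NANOG. SOX2, the partner factor of the pluripotency network, had 11.9, 0, 27.6, 26.95, 0 and 38.3 CPM in the EPI sums of E16-1, E16-2, E18, E21, E23 and E25, against 0.778 CPM in all other cells. It was at 0 in E16-2 and E23, where NANOG was 0 or low. Left-out embryos cost 2 of these calls, as PRDM14 had an adjusted p of 0.0998 without E23 and SOX2 one of 1 without E16-1, whereas NANOG and HESX1 passed under all 16 alternative settings.

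Other members of the core group were present in every EPI sum. DPPA4, a chromatin protein of pluripotent cells, had 241, 161, 727, 379, 141 and 197 CPM in E16-1, E16-2, E18, E21, E23 and E25, against 23.7 CPM in all other cells, and was 4.04 ± 0.40 higher on the log2 scale (adjusted p = 2.12e-10). L1TD1, an RNA-binding protein derived from a LINE-1 element, had 221, 270, 580, 458, 231 and 323 CPM, against 111 CPM in all other cells. TDGF1, the co-receptor of NODAL, had 96.1, 101, 177, 57.8, 37.2 and 20.8 CPM, against 7.11 CPM. The lowest EPI sum of each of these 3 genes thus still lay above the pooled level of all other cells. The lower member was LIN28B, an RNA-binding repressor of let-7 microRNAs, at -0.80 ± 0.20, and its adjusted p was 0.0863 without E21.

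Of 8 naive genes 1 was higher (2 by DESeq2), with a median of 1.29 over the list. It was DPPA5, with 19.4, 21.5, 228, 15.4, 105 and 136 CPM in the EPI sums of E16-1, E16-2, E18, E21, E23 and E25, against 2.47 CPM in all other cells. KLF17, a factor of the human preimplantation epiblast, was at 0 in all 6 sums, and TFCP2L1 was at 0 in 4 of them. Of 14 primed genes 9 were higher and 0 lower, with a median of 2.90 (7 higher and 0 lower by DESeq2 and by limma-voom alike). DNMT3B of the core group, the de novo DNA methyltransferase of the postimplantation epiblast, had 85.6, 22.98, 443, 175, 120 and 197 CPM, against 15.9 CPM in all other cells. TERF1, a telomere-binding protein, had 465.7, 162, 2057, 1019, 651 and 1160 CPM, against 209 CPM, and was above 0 in 76 of 79 cells. OTX2, a homeobox factor of primed epiblast and forebrain, had 11.03, 0, 27.8, 48.5, 1.57 and 319 CPM, so that E25 was far above the other 5 sums. ZIC2, a zinc finger factor of epiblast and neural tissue, was 2.48 ± 0.64 higher on the log2 scale. Without E25, OTX2 was 1.75 higher (adjusted p = 0.286) and ZIC2 1.93 higher (adjusted p = 0.225).

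Among genes picked for size and for the same direction in all 6 embryos, several carry known links to stem cells. SLC7A3, a transporter of arginine and lysine, had 158, 625.1, 254, 166, 359 and 42.9 CPM in E16-1, E16-2, E18, E21, E23 and E25, against 8.65 CPM in all other cells, and was 4.95 ± 0.40 higher on the log2 scale (adjusted p = 1.66e-13). PTPRZ1, a receptor tyrosine phosphatase, had 116, 64.3, 300.3, 222, 19.9 and 215 CPM, against 9.85 CPM. ZSCAN10, a zinc finger factor of pluripotent cells, ranged from 15.0 to 49.0 CPM over the EPI sums, against 1.10 CPM in all other cells. IFITM1, an interferon-induced membrane protein, was found in all 79 cells, with a median of 3074 CPM per cell. Its sums had 1167, 2462, 5491, 3190, 1045 and 5650 CPM, against 122 CPM, and its near-identical relatives make the assignment of reads to it uncertain. SSB, the La protein that binds new RNA polymerase III transcripts, had 1685, 985, 4915, 3875, 1389 and 2146 CPM, against 345 CPM. All 6 EPI sums of these 5 genes lay above the pooled level of the other cells, including E16-2 and E23, where NANOG was 0 or low. For SLC7A3, PTPRZ1, ZSCAN10 and IFITM1, and for TDGF1 above, naming required EPI above the other cells of each embryo. Their position is thus no separate support for a shared trait. SSB was named in the comparison with NNE instead.

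A further pair of named genes had the opposite distribution among embryos. CLDN10, a tight junction claudin, had 61.7, 251, 1.36, 20.02, 62.4 and 4.05 CPM in the EPI sums of E16-1, E16-2, E18, E21, E23 and E25, against 1.22 CPM in all other cells. CDX4, a caudal homeobox factor, had 122, 127, 1.75, 42.4, 139 and 4.36 CPM, against 8.24 CPM. Both were thus lowest in E18 and E25. In these embryos CDX4 lay below the pooled level of all other cells. It was above the other cells of the same embryo, which is what naming compared. Of the genes picked in this way they had the largest fitted folds, at 7.60 ± 0.97 for CLDN10 and 5.31 ± 0.57 for CDX4.

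Genes of connective tissue were among those lower in EPI cells. COLEC12, a scavenger receptor, had 0.441, 1.53, 0.776, 3.08, 5.77 and 1.56 CPM in the EPI sums of E16-1, E16-2, E18, E21, E23 and E25, against 83.5 CPM in all other cells. DDR2, a collagen receptor, was at most 2.62 CPM in an EPI sum, against 35.7 CPM in all other cells. USP3, a deubiquitinase of histones, had 16.3, 21.5, 2.33, 10.0, 8.92 and 2.80 CPM, against 43.8 CPM. Of 10 mesenchymal genes 4 were lower, namely FN1 (fibronectin), SNAI2 and ZEB2 (transcriptional repressors of E-cadherin) and CDH11 (a mesenchymal cadherin), and 0 were higher. DESeq2 called 6 of the 10 lower and limma-voom 2. The 4 calls were not firm, with adjusted p of 0.121 for SNAI2 without E18, 0.124 for ZEB2 without E21, and 0.067 for FN1 and 0.0632 for CDH11 without the embryo term. Of 11 epithelial genes 6 were higher and 0 lower. CDH1, which encodes E-cadherin, had 16.8, 55.2, 23.7, 22.3, 78.1 and 66.0 CPM in the same order, against 9.27 CPM in all other cells, and was 4.09 ± 0.52 higher on the log2 scale (adjusted p = 1.08e-07). EPCAM, an epithelial adhesion molecule, had 674, 1291, 236, 360.4, 680 and 846 CPM, against 152 CPM. Both adhesion genes were above the pooled level of the other cells in every EPI sum, and CDH1 was named by a rule of this kind within each embryo.

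Few markers of most other cell types were called in EPI cells, beside 4.7% of all genes called higher and 1.74% called lower. With lists this short, such counts do not show that these genes were absent. Against the other classes 0 of 11 trophoblast genes were higher and 1, PAGE4, was lower. Of 14 amnion genes 2 were higher, VTCN1 and DLX5, with 2 higher and 1 lower by DESeq2 and 0 called by limma-voom. With the EPI sums of E18, E21 and E25 alone VTCN1 was 5.16 higher on the log2 scale, whereas DLX5 was -2.09. The adjusted p of VTCN1 by edgeR's test was 0.121 without E18. Of 12 endoderm genes 1 was higher, AFP, and of 10 extraembryonic mesenchyme genes 2 were lower (6 by DESeq2), COL6A3 and LUM. Of 8 embryonic mesoderm genes 1 was lower, HAND2, and of 8 endothelium and blood genes 1 was lower, TEK. In all of these lists limma-voom called 0. Under 16 alternative settings PAGE4 passed in 8, AFP in 11, COL6A3 in 9, LUM in 12, HAND2 in 10 and TEK in 6. Of 8 neural ectoderm genes 0 passed edgeR's test, 2 had an unadjusted p below 0.05 and 1 was higher by limma-voom. Of 8 immediate early and heat shock genes 0 passed edgeR's test, DESeq2 or limma-voom, with 2 at an unadjusted p below 0.05 by edgeR. Of 8 genes of serine and one-carbon metabolism 1 was higher, GLDC, the glycine decarboxylase, which passed under 10 of 16 alternative settings.

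**Figure D3:**
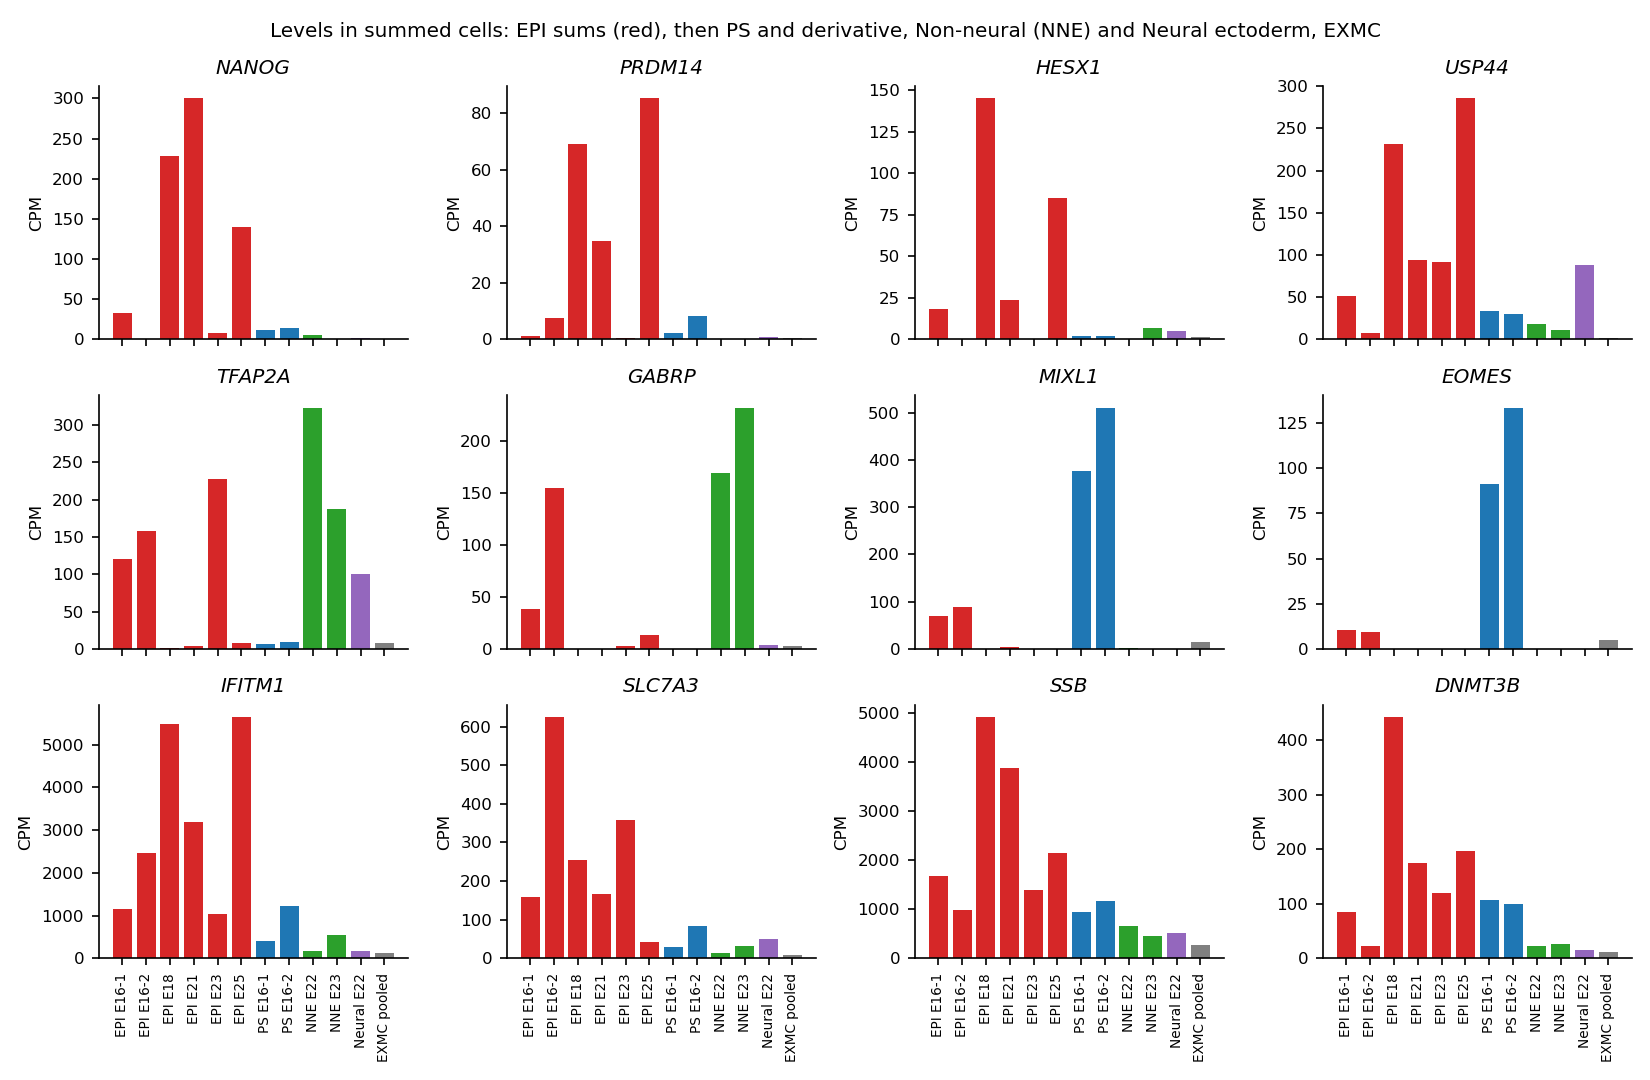
Levels of 12 genes in CPM in the EPI sums of 6 embryos (red), the PS and derivative sums of E16-1 and E16-2 (blue), the Non-neural ectoderm sums of E22 and E23 (green), the Neural ectoderm sum of E22 (purple) and all EXMC cells pooled (grey), with each bar 1 sum. NANOG is highest in EPI E21 at 300.3 CPM, TFAP2A in NNE E22 at 323 CPM and MIXL1 in PS E16-2 at 511 CPM, while SLC7A3 is above 42 CPM in every EPI sum.

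The comparison with PS asked what separates epiblast cells from cells that have entered the streak. Of 16292 genes, 76 were higher (0.466%) and 41 lower (0.252%) in EPI cells. PS sums existed only for E16-1 and E16-2, so within an embryo this comparison rests on the 8 and 5 EPI cells of those embryos, most of which carried TFAP2A. Without the embryo term, 222 genes differed in place of 117, and 53 genes were shared between the 2 counts. With the EPI sums of E18, E21 and E25 alone, a choice made after seeing the data, no embryo held both classes. The PS sum of E16-1, then alone in its embryo, dropped out of that fit, so its PS arm was the single E16-2 sum of 37 cells, which was assumed to vary like the other groups. That fit found 55 genes, of which 13 were among the 117.

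Of 16 streak genes 5 were lower in EPI cells than in PS cells and 0 higher, with a median log2 fold change of -2.20 against -0.04 over all genes. The count depended on the tool and on how the embryo was modelled. DESeq2, with the embryo as a term, called 0 of the 16, with 2 at an unadjusted p below 0.05. The limma-voom fit, with the embryo as a random block in place of that term, called 11 lower. MIXL1, a homeobox factor of mesendoderm, had 68.8, 88.9, 0, 4.62, 0 and 0.311 CPM in the EPI sums of E16-1, E16-2, E18, E21, E23 and E25, against 377 and 511 CPM in the PS sums of E16-1 and E16-2. EOMES, a T-box factor required for endoderm, had 10.6, 9.19, 0, 0, 0 and 0 CPM, against 91.4 and 134 CPM in PS. MESP1, a factor of early mesoderm, had 13.2, 44.4, 1.75, 11.6, 0 and 0 CPM, against 200.2 and 461 CPM. The EPI and PS sums of these 3 genes did not overlap, which was a condition for naming EOMES and MESP1. Within EPI the sums of E16-1 and E16-2 were the highest, but MIXL1 there rested on few cells. It was detected in 1 of 5 cells of E16-2, at 407 CPM. In E16-1 its median over the 8 cells was 20.8 CPM and its highest value 397 CPM. Leaving out either E16 embryo left 1 PS sum. Without E16-2 the adjusted p of MIXL1 was 0.208 and that of EOMES 0.0891, and without E16-1 that of MESP1 was 0.0619.

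LHX1, a homeobox factor of the anterior streak, had 5.73, 9.19, 0.194, 0, 0 and 0 CPM in the EPI sums in that order, against 311 and 113 CPM in PS, and was -5.07 ± 0.81 on the log2 scale (adjusted p = 0.000175). CER1, a secreted inhibitor of NODAL and BMP, had 24.3, 0, 2.91, 0, 0 and 5.60 CPM, against 286 and 169 CPM, and was -3.73 ± 0.86 (adjusted p = 0.0055). MESP2, a relative of MESP1, was the fifth lower streak gene on a small level, at most 1.76 CPM in EPI, against 17.5 and 14.9 CPM in PS. TBXT, the classical streak factor brachyury, could not carry the comparison, since its highest PS sum held 6.72 CPM. Of 10 mesenchymal genes 3 were lower and 0 higher (2 lower by DESeq2 and 4 by limma-voom). SNAI1, a repressor of E-cadherin, was -2.38 ± 0.61 (adjusted p = 0.0194) and SNAI2 was -3.40 ± 0.89 (adjusted p = 0.0212). PDGFRA, a growth factor receptor of mesoderm and the third of them, was -4.38 ± 1.02 (adjusted p = 0.0064). Outside that list GATA6, a factor of endoderm and mesoderm, was -4.74 ± 1.11 (adjusted p = 0.00737) and CCK, a peptide hormone, was at most 0.770 CPM in EPI, against 41.4 and 15.54 CPM in PS. In the fit with the EPI sums of E18, E21 and E25 alone, which holds 1 PS sum, SNAI1 and GATA6 were still called, whereas MIXL1 was -4.13 (adjusted p = 0.222), EOMES -4.82 (adjusted p = 0.923) and LHX1 -3.35 (adjusted p = 0.750). The calls also rested on single embryos, with adjusted p of 0.111 for LHX1 and 0.222 for SNAI1 without E16-1, and of 0.142 for CER1, 0.558 for MESP2, 0.268 for SNAI2, 0.447 for PDGFRA, 0.516 for GATA6 and 0.280 for CCK without E16-2. Without the embryo term SNAI2 had an adjusted p of 0.0931 and PDGFRA one of 0.177.

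Of 14 amnion genes 4 were higher and 0 lower, with 4 higher by DESeq2 too but 0 by limma-voom, which had 2 at an unadjusted p below 0.05. Of 12 germ cell genes 2 were higher, TFAP2C and PDPN, and of 11 epithelial genes 2, CRB3 and GRHL2, with list medians of 1.57 for amnion, 1.47 for germ cell and 2.27 for epithelial genes. TFAP2A had 121, 158, 0.776, 3.85, 227 and 8.40 CPM in the EPI sums of E16-1, E16-2, E18, E21, E23 and E25, against 6.05 and 9.24 CPM in PS, and was 3.79 ± 0.87 higher on the log2 scale (adjusted p = 0.00612). GABRP, a GABA receptor subunit marking amnion, had 37.9, 155, 0.194, 0, 3.15 and 13.4 CPM, against 0.383 and 0.210 CPM. These groups overlapped, because E18 and E21 were at or below the PS level. With the EPI sums of E18, E21 and E25 alone, against the single PS sum of E16-2, TFAP2A was -0.38. TFAP2B and WNT6 were also higher, at 6.32 ± 1.13 and 7.06 ± 1.46, and both were at 0 in the EPI sums of E18, E21 and E25. Without E16-1 the adjusted p was 0.620 for CRB3, 0.137 for GRHL2, 0.204 for PDPN, 0.223 for TFAP2A, 0.155 for GABRP, 0.314 for TFAP2B and 0.616 for WNT6. Without the embryo term it was 0.0709 for GRHL2, 0.152 for PDPN, 0.0516 for TFAP2A, 0.0628 for GABRP, 0.0541 for TFAP2B and 0.0573 for WNT6.

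TFAP2C, a factor of trophoblast and primate germ cells, differed from them. It had 81.6, 36.8, 54.9, 86.2, 160.0 and 9.96 CPM in the EPI sums in that order, against 5.54 and 4.41 CPM in PS. All 6 sums were above both PS sums, which was a condition for naming it. It was 4.11 ± 0.74 higher on the log2 scale (adjusted p = 0.000198) and 4.30 with the EPI sums of E18, E21 and E25 alone, and it passed under all 15 alternative settings. Most EPI cells of E18, E21 and E25 nevertheless lacked it, with 14 of 23, 12 of 15 and 10 of 15 cells at 0. The highest cells of these embryos had 685, 424 and 42.9 CPM, so these sums rested on a minority of cells. CXCL12, a chemokine, had 877, 1054, 159, 137, 249 and 176 CPM, against 33.98 and 46.4 CPM, but its adjusted p was 0.0874 without E16-1 and 0.0825 without the embryo term. TPST2, which sulfates tyrosines of secreted proteins, was named in the comparisons with PS and with NNE alike, at 2.02 ± 0.58 and 2.23 ± 0.56, and had 33.96, 36.8, 58.4, 35.4, 20.45 and 72.2 CPM in the EPI sums, against 9.96 and 10.9 CPM in PS. Its call against PS was lost with any 1 embryo left out (adjusted p = 0.376 without E16-2), and that against NNE without E23 (adjusted p = 0.0959) or without the embryo term (adjusted p = 0.0800).

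The pluripotency markers themselves were not called against PS. NANOG was 1.60 ± 0.92 (adjusted p = 0.506), PRDM14 0.61 ± 1.16 (adjusted p = 0.993), HESX1 3.00 ± 1.39 (adjusted p = 0.329) and USP44 1.40 ± 0.74 (adjusted p = 0.434). By edgeR's test 0 of 4 epiblast, 0 of 10 core and 0 of 14 primed genes passed in either direction, with 1, 2 and 1 of them at an unadjusted p below 0.05, and DESeq2 and limma-voom called 0 as well. DNMT3B in PS, at 108 and 98.9 CPM, was above the EPI sums of E16-1 and E16-2 and below the other 4. A p-value that misses the threshold in a comparison resting on these embryos does not show that EPI and PS cells had the same levels.

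**Figure D4:**
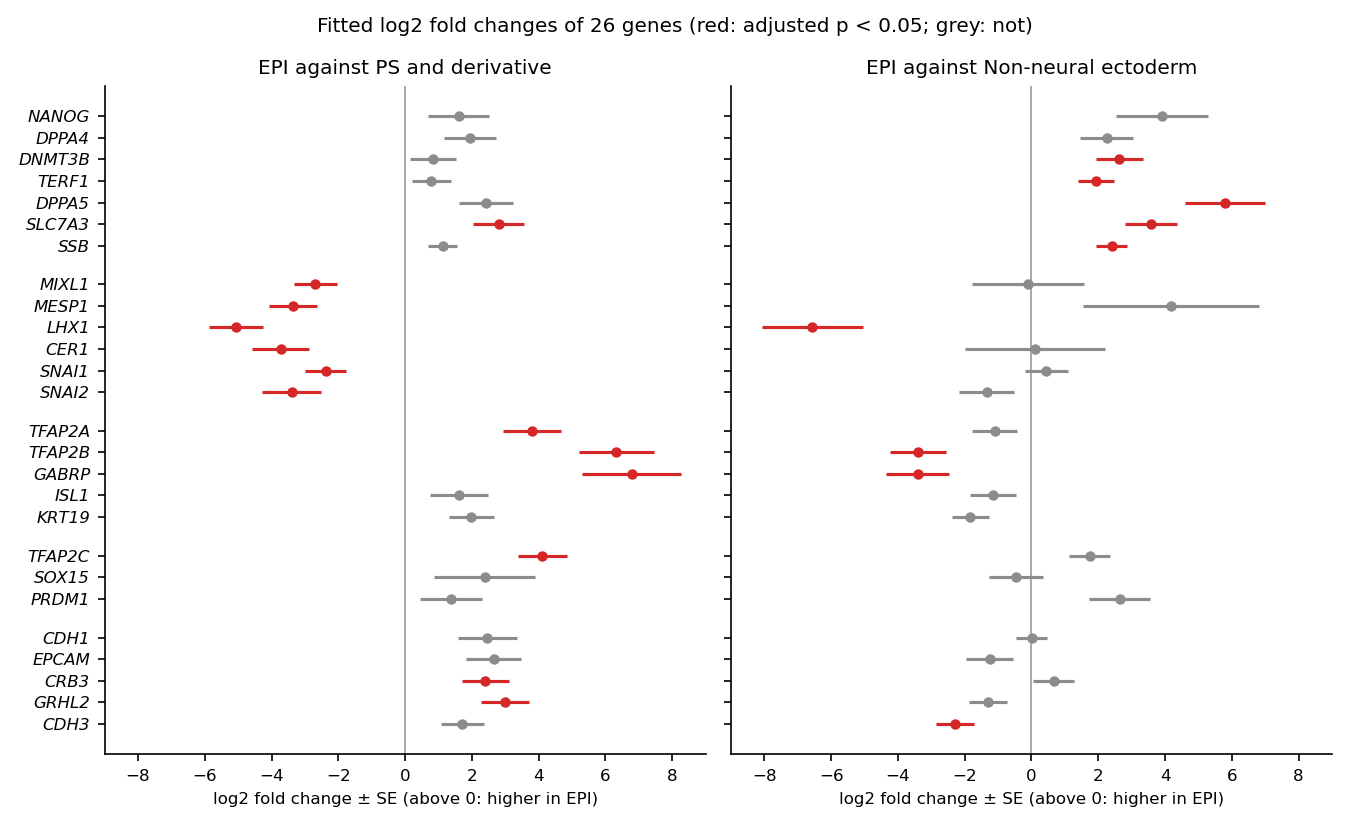
Fitted log2 fold changes of 26 genes in EPI against PS and derivative (left) and against Non-neural ectoderm (right), with points for the estimate, bars for 1 SE, red for adjusted p below 0.05 and grey for the rest. TFAP2B is higher than in PS and lower than in Non-neural ectoderm, and SSB, DPPA5, DNMT3B, TERF1 and CDH3 are called against Non-neural ectoderm alone.

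The comparison with NNE asked what separates EPI cells from surface ectoderm. Of 16292 genes, 58 were higher (0.356%) and 160 lower (0.982%) in EPI cells. NNE sums existed for E22 and E23, and E23 is the only embryo with both sums. Its 8 EPI cells all carried TFAP2A, so the fold changes within E23 set these cells against NNE cells. Without the embryo term 174 genes differed, of which 100 were among the 218, and with the EPI sums of E18, E21 and E25 alone 293 differed, of which 152 were among the 218.

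Of the pluripotency genes, 1 of 4 epiblast markers, 1 of 10 core, 1 of 8 naive and 3 of 14 primed genes were higher and 0 lower. DESeq2 called 0, 1, 1 and 1 of these lists higher, and limma-voom 1, 4, 1 and 1. USP44 was 3.18 ± 0.77 higher on the log2 scale (adjusted p = 0.00906) than in NNE, where it had 17.9 CPM in E22 and 11.5 CPM in E23. DNMT3B was 2.63 ± 0.70 higher (adjusted p = 0.0238), with 23.2 and 25.5 CPM in NNE. The EPI sum of E16-2, at 22.98 CPM, lay just below both NNE sums, and the other 5 EPI sums lay above. DPPA5 was 5.80 ± 1.20 higher (adjusted p = 0.00187), with 1.15 and 0.864 CPM in NNE, below all 6 EPI sums. Outside these lists, SSB was 2.40 ± 0.46 higher (adjusted p = 0.000699), with 667 and 448 CPM in NNE, and SLC7A3 was 3.58 ± 0.79 higher (adjusted p = 0.00392), with 12.7 and 32.9 CPM in NNE. For both of these the EPI sums did not overlap the NNE sums, which, as for DPPA5, was a condition for naming them. ETV4, a transcription factor induced by FGF, was 3.12 ± 0.85 higher (adjusted p = 0.0285), and SFRP2, a secreted WNT modulator of the primed list, was 2.92 ± 0.83 higher (adjusted p = 0.0362). NANOG at 3.92 ± 1.38 (adjusted p = 0.124) and HESX1 at 3.65 ± 1.15 (adjusted p = 0.0674) were not called. Without E23, which leaves the NNE sum of E22 alone, the adjusted p was 0.152 for USP44, 0.258 for DNMT3B, 0.635 for DPPA5, 0.0564 for SSB, 0.359 for ETV4 and 0.175 for SFRP2. Without the embryo term it was 0.0810 for SLC7A3 and 0.385 for SFRP2.

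Among the genes with the largest negative folds in the comparison with NNE, NTRK2, a neurotrophin receptor, had 0, 0, 0.194, 0, 1.05 and 5.29 CPM in the EPI sums of E16-1, E16-2, E18, E21, E23 and E25, against 210 and 222 CPM in the NNE sums of E22 and E23, and was -5.64 ± 0.89 on the log2 scale (adjusted p = 1.99e-05). IGFBP5, an insulin-like growth factor binding protein, had 9.26, 12.3, 3.88, 9.24, 40.9 and 9.65 CPM, against 874 and 509 CPM in NNE. HOXB3, a homeobox gene of the hindbrain region, had 21.2, 12.3, 0.388, 0, 0 and 0 CPM, against 46.4 and 56.4 CPM. The EPI and NNE sums of these 3 genes did not overlap, which was a condition for naming them. NTRK2 and HOXB3 passed under all 15 alternative settings and IGFBP5 under 13 of 15. Without E23, which leaves the NNE sum of E22 alone, IGFBP5 was -4.98 on the log2 scale. NPNT, a matrix protein, and LRP2, an endocytic receptor, were also lower, at most 4.20 and 1.56 CPM in an EPI sum. Without E23 their adjusted p was 0.133 for NPNT and 0.212 for LRP2.

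Of 14 amnion genes 2 were lower than in NNE and 0 higher, namely TFAP2B at -3.40 ± 0.83 (adjusted p = 0.00962) and GABRP at -3.40 ± 0.95 (adjusted p = 0.0311). DESeq2 called 0 of the 14, with 3 at an unadjusted p below 0.05, and limma-voom called 6 lower. Without E23 the adjusted p was 0.299 for TFAP2B and 0.452 for GABRP, and without the embryo term it was 0.125 for GABRP. TFAP2A itself was -1.11 ± 0.67 (adjusted p = 0.539). The EPI sum of E23, at 227 CPM, lay between the NNE sums of 323 CPM in E22 and 188 CPM in E23. A single Neural ectoderm sum, from the 57 Neural ectoderm cells of E22, was available, and its values were not tested. PAX3 and ZIC1, factors of the dorsal neural tube, were at 0 in all 6 EPI sums, against 71.4 and 55.1 CPM in Neural ectoderm. PAX6, a neural and eye factor, was at most 0.524 CPM in EPI sums, against 8.06 CPM in Neural ectoderm, while SOX1 and SOX3 were at 0 in the sums of both classes. Broader members of the list were present, and its 13 genes summed to 142, 58.2, 93.8, 70.1, 36.2 and 81.2 CPM in the EPI sums of E16-1, E16-2, E18, E21, E23 and E25, against 375 CPM in Neural ectoderm, 102 CPM in NNE, 295 CPM in PS, 612 CPM in Endoderm and 109.9 CPM in EXMC.

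Because the sums of different embryos diverged, the cells were described one by one after thinning, by how many markers of each list they held. The thresholds were chosen after the values were seen, so the counts are descriptions. They are given for EPI cells alone, with no share of other classes beside them. The amnion list also summed to 5962 CPM in EXMC and 2486 CPM in CTB, a trophoblast class. Meeting its threshold is thus not shown to be particular to amnion cells. At least 2 of the 4 epiblast markers were detected in 51 of 79 cells, at least 4 amnion genes in 32 and at least 4 germ cell genes in 15. Both the epiblast and the amnion threshold were met by 14 cells, and 4 cells met none of the thresholds, that for germ cell genes included. By embryo, the epiblast threshold was met by 19 of 23 cells of E18, 11 of 15 of E21, 12 of 15 of E25 and 4 of 8 of E16-1. It was met by 0 of 5 cells of E16-2 and 0 of 8 of E23. The amnion threshold was met by 8 of 8 cells of E23, 5 of 5 of E16-2, 5 of 8 of E16-1, 5 of 15 of E21, 4 of 15 of E25 and 2 of 23 of E18. In E16-2 and E23 all cells thus met the amnion threshold and none the epiblast one, although in E23 USP44 alone was detected in 4 of 8 cells without thinning.

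Of the next 4 genes ISL1 is on the amnion list, while ID1, ID2 and ID3 lie outside it. The 15 BMP pathway genes summed to 2531, 3358, 493, 823, 4324 and 293 CPM in the EPI sums of E16-1, E16-2, E18, E21, E23 and E25. They summed to 2219 CPM in PS, 2411 CPM in NNE and 2917 CPM in Neural ectoderm, so a high level is not particular to amnion or NNE. ISL1, a LIM homeobox factor required for primate amnion, had 22.1, 143, 0.194, 0, 82.9 and 9.96 CPM in the EPI sums of E16-1, E16-2, E18, E21, E23 and E25. ID2, an inhibitor of helix-loop-helix factors that BMP induces, had 510.3, 1129, 56.3, 57.8, 1681 and 25.8 CPM. ID1 had 615, 745, 278, 282, 1196 and 47.9 CPM, and ID3 had 984, 931, 93.8, 396, 1076 and 28 CPM. For all 4 genes the sums of E16-1, E16-2 and E23 lay above those of E18, E21 and E25, but ISL1 in E16-2 rested largely on 1 cell, with a median of 7.02 CPM over the 5 cells and a highest value of 458 CPM. TFAP2A and ISL1 were detected together in 16 of 79 cells without thinning, 7 of them among the 8 cells of E23. NANOG and TFAP2A were detected together in 4 cells after thinning and in 16 without it. No doublet caller was run, so pairs of cells captured together were not removed by it.

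Germ cell genes picked out a few cells. Of 12 germ cell genes 5 were higher in EPI cells than in the other classes and 1 was lower. TFAP2C, PRDM1 (BLIMP1), SOX15, PDPN and DND1 were higher, and ARID5B was lower. SOX15, an HMG box factor, had 0.882, 0, 93.8, 34.7, 13.6 and 0 CPM in the EPI sums of E16-1, E16-2, E18, E21, E23 and E25, against 2.46 CPM in all other cells, so E18 was highest. The adjusted p of SOX15 was 0.179 without E16-2, and that of PRDM1 was 0.0919 without E18. Both NANOS3, an RNA-binding protein of germ cells, and SOX17, the factor that starts the primate germ cell program, were detected in 5 EPI cells, 4 from E18 and 1 from E22. After thinning 3 of these cells still held both. Without thinning NANOS3 was detected in 10 of 79 EPI cells, against 4 of 228 PS cells and 8 of 1185 EXMC cells, and after thinning in 7 of 79 EPI cells, against 1 of 203 PS cells and 0 of 1117 EXMC cells. The 5 cells with both genes had a NANOG median of 593 CPM, ranging from 98.8 to 912 CPM. Their median of SOX15 was 399 CPM (368 to 605), that of PRDM1 188 CPM (29.2 to 224) and that of TFAP2C 104 CPM (29.4 to 685).

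In the same 5 cells several epiblast genes were at 0. USP44, SOX2 and OTX2 were at 0 in 5 of 5, and DNMT3B and SFRP1 were detected in 1 of 5 each. The other 54 EPI cells with NANOG had USP44 in 44 cells, SOX2 in 30, OTX2 in 37, SFRP1 in 43 and DNMT3B in 45. Among those 54 cells SOX15 was detected in 14, PRDM1 in 9 and TFAP2C in 16. These are counts of cells chosen by 2 genes, given without a test, and 4 of the 5 cells come from 1 embryo.

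A single cell of E24 had several streak genes at high levels. With 340821 counts it had 8908 CPM of CER1, 2814 CPM of MIXL1, 2435 CPM of DKK1, an inhibitor of WNT, and 367 CPM of LHX1. It also had 343 CPM of FGF17, 147 CPM of EOMES, 123 CPM of GSC, the organizer factor goosecoid, and 314 CPM of SOX17, beside 49.9 CPM of NANOG. It exceeded the PS sums in CER1, MIXL1, LHX1 and EOMES, although a sum averages over many cells. CER1, DKK1 and SOX17 are not on the streak list. After thinning this cell held 6 of the 16 streak genes, whereas 1 cell of E16-2 held 8, with 407 CPM of MIXL1. The other EPI cell annotated to E24, from library 27, had 0 CPM of CER1, 76.5 CPM of MIXL1, 25.5 CPM of EOMES and 102 CPM of NANOG.

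**Figure D5:**
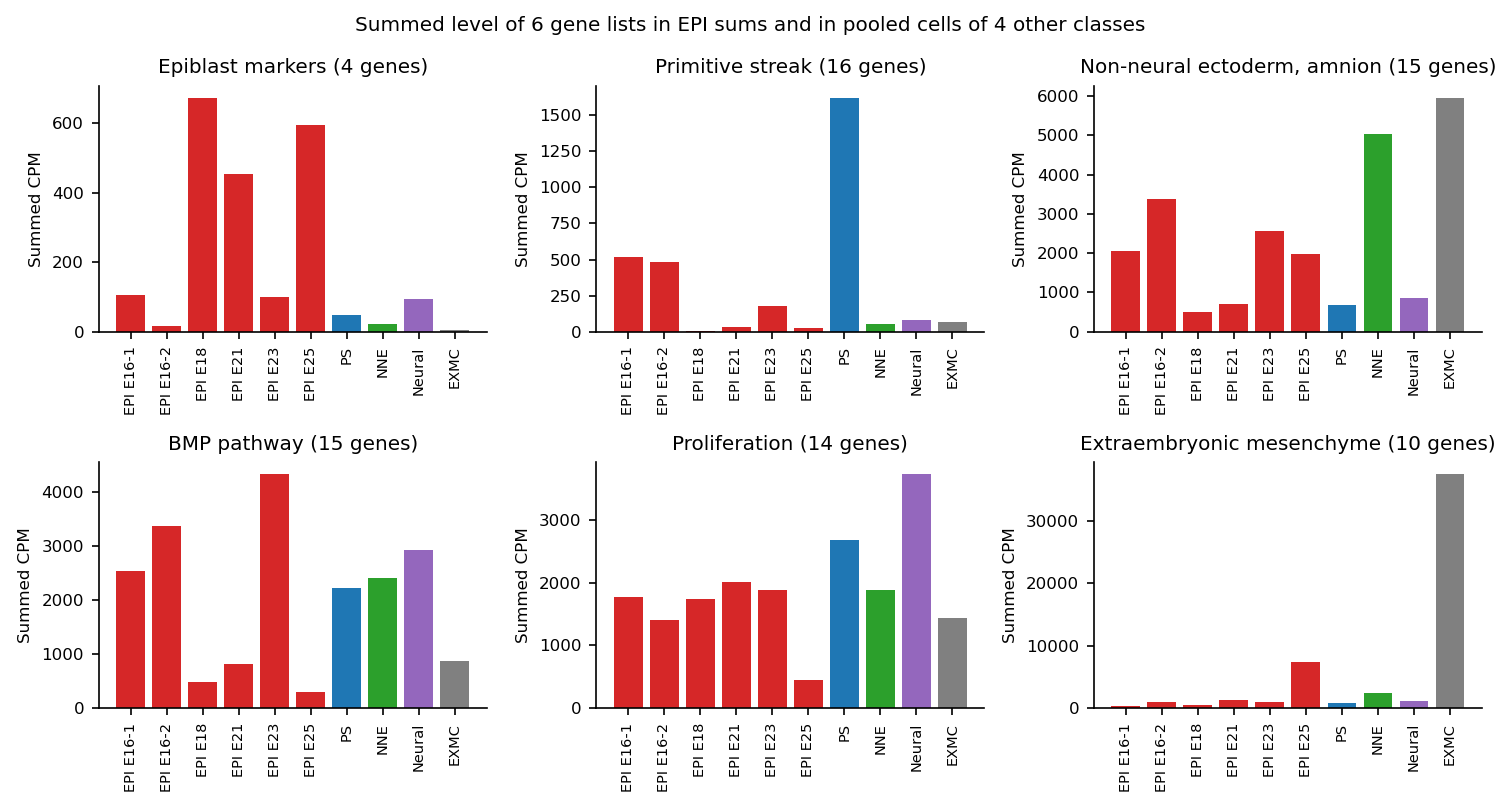
Summed levels in CPM of 6 gene lists in the EPI sums of 6 embryos (red) and in the pooled cells of PS and derivative (blue), Non-neural ectoderm (green), Neural ectoderm (purple) and EXMC (grey), with each bar 1 sum. The epiblast list runs from 15.3 CPM in EPI E16-2 to 674 CPM in EPI E18, and the extraembryonic mesenchyme list is highest in EXMC at 37435 CPM and, among EPI sums, in E25 at 7368 CPM.

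The 4 epiblast markers summed to 105 CPM in the EPI cells of E16-1, 15.3 in E16-2, 674 in E18, 453 in E21, 100.2 in E23 and 596 in E25, against 49.5 CPM in PS, 22.4 CPM in NNE and 94.5 CPM in Neural ectoderm. The 16 streak genes summed to 516, 486, 2.72, 34.7, 177 and 25.8 CPM in the EPI sums in that order, against 1621 CPM in PS. CDX2 made up much of the list in E16-1, E16-2 and E23, with 242, 141 and 158 CPM there, against 0, 0 and 0.311 CPM in E18, E21 and E25. It was the 1 streak gene called higher in EPI than in the other classes, at 2.36 ± 0.58 (adjusted p = 0.0105), and it was -0.050 without E23 and -4.95 with the EPI sums of E18, E21 and E25 alone. The amnion list summed to 2059, 3386, 503, 696, 2578 and 1986 CPM, against 676 CPM in PS, 5027 CPM in NNE, 2486 CPM in CTB (a trophoblast class) and 5962 CPM in EXMC. IGFBP3, at 1455 CPM, made up most of the E25 value.

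Of the signalling pathways few members were called against the other classes. Of 11 NODAL pathway genes 2 were higher, TDGF1 and FOXH1, the DNA-binding partner of SMAD2 and SMAD3, and 1 was lower. FOXH1 had 45.9, 135, 79.4, 100.1, 34.6 and 49.5 CPM in the EPI sums of E16-1, E16-2, E18, E21, E23 and E25, against 180 and 415 CPM in the PS sums, so PS sums were the higher ones. NODAL itself was at most 10.7 CPM in EPI sums. Of 16 FGF pathway genes 3 were higher, the ligand FGF2, the target ETV4 and SPRED1, an inhibitor of the pathway. FGF2 was at 0 in E16-1, E16-2 and E23, against 3.88, 6.16 and 22.1 CPM in E18, E21 and E25. The adjusted p of FGF2 was 1 without E16-2, and that of SPRED1 was 0.289 without E18, while ETV4 passed under all 16 alternative settings.

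Of 17 WNT pathway genes 3 were higher than in the other classes, SFRP1 and SFRP2, secreted modulators, and the ligand WNT5B, and 0 were lower. DESeq2 called 3 higher and 4 lower. SFRP1 had 45.9, 7.66, 657, 350.4, 28.3 and 232 CPM in the EPI sums of E16-1, E16-2, E18, E21, E23 and E25, against 54.3 CPM in all other cells. WNT5B had 208, 182, 6.41, 8.47, 16.3 and 0 CPM, so E16-1 and E16-2 were highest there. Without E18 SFRP1 was 1.37 higher (adjusted p = 0.222), and without E16-2 WNT5B was 1.54 higher (adjusted p = 0.317). Of 15 BMP pathway genes 3 were higher, the ligand BMP7 and the targets ID1 and ID4 (2 by DESeq2, 1 by limma-voom). BMP4, the ligand of amnion and streak induction, had 221, 207, 13.6, 35.4, 68.2 and 46.7 CPM in EPI, against 328 and 167 CPM in PS and 160.0 and 129 CPM in NNE. It was highest in the E16 embryos within EPI. Without E23 the adjusted p was 0.143 for BMP7 and 0.291 for ID4.

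Of 9 genes of DNA methylation 3 were higher in EPI cells, DNMT3B, DNMT3A (the second de novo enzyme) and HELLS (a remodeler that helps methylation), and 1 was lower, TET2, which oxidises methylcytosine. DNMT3B was 3.01 ± 0.32 higher on the log2 scale (adjusted p = 6.14e-09), whereas DNMT3A was 0.72 ± 0.20 higher (adjusted p = 0.0297). Without E18 the adjusted p was 0.472 for DNMT3A, 0.0958 for HELLS and 0.248 for TET2. DNMT1, the maintenance enzyme, had 248, 306, 101, 106, 268 and 52.0 CPM in the EPI sums of E16-1, E16-2, E18, E21, E23 and E25, against 195 CPM in all other cells, and was not called. Of 9 glycolysis genes 1 was higher, GAPDH, at 0.79 ± 0.16, with an adjusted p of 0.0564 without E23 and 0.102 without the embryo term. Of 14 proliferation genes 0 passed edgeR's test in either direction, 3 had an unadjusted p below 0.05, and DESeq2 and limma-voom called 0. MKI67, a marker of cycling cells, nevertheless differed among EPI sums, with 2.49 CPM in E25 and 30.6 to 140 CPM in the other 5.

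Within EPI cells, the change with embryonic day was fitted over the 6 sums from E16 to E25, with p-values adjusted over all 9983 genes tested. By edgeR's test 5 genes passed (0.0501%), and 925 had an unadjusted p below 0.05. OGN, a small proteoglycan of connective tissue, rose by 1.99 ± 0.21 (SE) log2 units a day (adjusted p = 0.0256), with 0, 0, 0.194, 1.54, 6.82 and 231 CPM in E16-1, E16-2, E18, E21, E23 and E25. DLK1, a Notch-related membrane protein, rose by 0.63 ± 0.08 a day (adjusted p = 0.0214), with 4.85, 0, 17.9, 75.5, 106 and 328 CPM. DDIT3, a stress response factor, rose by 0.73 ± 0.11 a day (adjusted p = 0.0269), with 1.32, 1.53, 9.71, 20.8, 12.1 and 305 CPM. COL1A1, a collagen chain, rose by 0.47 ± 0.07 a day (adjusted p = 0.0477), with 52.5, 113, 143, 353, 210.3 and 1950 CPM. HOXB9, a trunk homeobox gene, fell by 3.66 ± 0.47 a day (adjusted p = 0.0477), with 123, 44.4, 0.194, 0, 0 and 0 CPM. These calls rest on single embryos, since 0 genes passed without E16-1, without E21 or without E25, with 611, 873 and 635 genes at an unadjusted p below 0.05, and 47 passed without E23.

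OGN, DLK1 and COL1A1 are also genes of the extraembryonic mesenchyme, with 255, 1739 and 7537 CPM in pooled EXMC cells. OGN stood at 563 CPM in the other cells of E25. Beside them, COL3A1, a further collagen chain, had 9.70, 185, 159, 508, 236 and 2534 CPM in the EPI sums of E16-1, E16-2, E18, E21, E23 and E25, against 13631 CPM in EXMC, and its slope was not called (adjusted p = 0.109). Over the cells of E25 its median was 730 CPM, with a range of 251 to 10236 CPM. The cell of E25 with the most counts, 741996, had 6266 CPM of COL3A1 and 0 of NANOG and USP44. A sum weights each cell by its counts, so this cell weighed most in the E25 sum. The 10 extraembryonic mesenchyme markers summed to 298, 1045, 456, 1254, 1031 and 7368 CPM in the EPI sums in that order, against 37435 CPM in EXMC. Their part in the day slope was not tested.

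E25 stood apart in more than these genes. PMAIP1, a BH3-only cell death gene, had 2676 CPM in the EPI sum of E25 and 42.5 to 335 CPM in the other 5 sums, and all 15 cells of E25 held it, with a median of 2426 CPM. Over all classes it was 2.84 ± 0.43 higher in EPI cells on the log2 scale (adjusted p = 1.29e-05). TOP2A, a topoisomerase of dividing cells, had 5.29 CPM in E25, against 118 to 490 CPM in the other sums, and the mitotic kinase AURKA had 1.24 CPM, against 42.9 to 139 CPM. MKI67 was detected in 5 of 15 cells of E25 and TOP2A in 8 of 15. NANOG, PRDM14, HESX1 and USP44 stood nevertheless at 140.0, 85.2, 85.2 and 286 CPM in these cells, against 3.84, 1.48, 1.65 and 3.30 CPM in the other cells of E25.

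Each EPI sum was last compared with every class across genes, by Pearson's r of log2(CPM + 1) over 11516 genes, as a description, since cells of 1 embryo share libraries. The EPI cells of E16-1 were most like PS (r = 0.901) and then NNE (0.871), and those of E16-2 were most like PS (0.814). The EPI cells of E23 were most like NNE (0.872), ahead of the EPI sum of E18 (0.841). The sums of E18 and E21 were most like each other (0.864). E25 was most like the EPI sum of E18 (0.816), followed by NNE (0.812) and EXMC (0.803). The 3 cells of E22 were most like the EPI sum of E18 (0.799). The sums of E18, E21 and E25 were thus nearest to another EPI sum, while those of E16-1, E16-2 and E23 were nearest to a different class. The latter held 8, 5 and 8 cells, against 23, 12 and 15 in E18, E21 and E25, while classes were pooled over embryos. How far cell number sets these r values was not tested.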

How the data were processed

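RNA counts per gene and cell were deposited by the authors as 1 table of raw counts with an annotation of embryo, sex, library and class per cell. Per the submitters' processing notes, reads passed through cutadapt 1.15, STAR 2.6.0a and HTSeq 0.10.0. The genome build, the filters on cells and whether reads or molecules were counted are not stated in what was used here. The members and all 25 gene lists (1 had 0 genes in the table) were chosen with earlier results of these data known. Counts were summed per embryo and class (at least 5 cells), and 0 sample columns were left unused. The sums were fitted with edgeR 4.0.16 (R 4.3.3), TMM scaling, a filter on low counts, class and embryo as terms (an embryo with 1 sum drops out), and Benjamini-Hochberg adjustment at 0.05. The embryo pairs the sums, since the annotation gives it for each cell. Named genes had adjusted p below 0.05, at least 20 CPM in the higher class and the largest folds (up to 12 per direction, 8 for the slope), or belonged to a list. Against the other classes, each EPI sum also had to lie on the same side of the other cells of its embryo. Against PS and NNE, the EPI sums could not overlap the sums of the other class. RLE scaling, no filter, DESeq2 1.42.0, limma 3.58.1 (voom, with the embryo as a random block in place of a term), other sums and left-out embryos were tried. A few genes are not reported here. The fits were tested on simulated data. Limits of 0 counts use 3 counts, and intervals are exact.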

Additional observations from a re-analysis of the deposited data

Results flagged for a closer look

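Of 80 genes looked at over the 6 EPI sums on the log2(CPM + 1) scale, 5 had 1 sum far from the other 5, and chance gives about 1 in 20 groups. TOP2A had 5.29 CPM in the EPI sum of E25, against 118 CPM in the next lowest sum, and AURKA had 1.24 CPM in E25, against 42.9 CPM in the next lowest. ETV4, the FGF-induced factor, had 2.10 CPM in E23, against 23.6 CPM in the next lowest sum. TFCP2L1 had 7.34 CPM in E23, against 0.622 CPM in the next highest, and PAX6 had 0.524 CPM in E23, against 0 in the other sums.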

How the results depend on the processing

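The count of genes against the other classes was 1049, against 585 by limma-voom, and 491 to 924 when 1 embryo was left out (491 without E18). DESeq2 gave 1494 (773 higher, 721 lower) and all other cells in 1 sum per embryo gave 1517 (529 higher, 988 lower), so the split moved toward lower genes. Without the replicate block, with the embryo term dropped, it was 1254, with 781 genes shared. With the EPI sums of E18, E21 and E25 alone, chosen after seeing the data, it was 811. Against PS the count was 117, against 268 by limma-voom (36 higher, 232 lower), 233 with sums per library, 222 without the replicate block, 55 with those 3 sums alone (1 PS sum) and 31 (without E16-1) to 113 with 1 embryo left out. Against NNE it was 218, against 384 with at least 10 cells a sum, 862 with sums per library, 174 without the replicate block, 293 with those 3 sums alone and 53 (without E23) to 237 with 1 embryo left out. For the day slope it was 5, against 65 with no filter, 55 by DESeq2, 18 with at least 3 cells a sum, 272 with sums per library, 3 with the disagreeing libraries included and 0 to 47 with 1 embryo left out. The cause of these shifts was not tested. Directions turned for CDX2 against the other classes (-5.10 with at least 10 cells, -4.95 with those 3 sums alone, -0.050 to 3.00 with 1 embryo left out, lowest without E23), for DLX5 (-2.51, -2.09 and, by limma-voom, -0.23) and for TFAP2A against PS (-0.46 with at least 10 cells, -0.38 with those 3 sums alone). PRDM14 was detected in 51.9% of EPI cells without thinning. Small EPI sums, of 5 to 23 cells, limit all of these values.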
